A study of Mus musculus with 48 samples.

Results

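This comparison is between spleens of C57BL/6J mice at time 2 and at time 1, measured on 3 arrays per time point. These 6 arrays, chosen by tissue, strain and time in the sample titles, are part of 48 Affymetrix MG-U74Av2 arrays that cover 4 tissues (spleen, lung, liver and heart) of C57BL/6J and A/J mice, both inbred, at both times. All groups used here are of untreated inbred animals as far as the labels go: male littermates aged 3 months, 3 biological replicates per group, with about 20 micrograms of total RNA per array. The labels do not say what separates time 1 from time 2. Every C57BL/6J spleen array of time 1 belongs to 1 array run and every one of time 2 to another, so that time and array run cannot be told apart. The A/J spleen arrays share these 2 runs, and the liver and lung arrays of time 2 share the run of the spleen arrays of time 2. The liver and lung arrays of time 1 belong to a different run from the spleen arrays of time 1.

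The spleen filters blood and holds the B cells, T cells and macrophages that respond to what the blood carries. Its red pulp removes worn red cells and recycles their iron. In the mouse the red pulp also remains a site of red cell formation throughout adult life, so that dividing erythroid precursors are a normal part of the tissue, and their share of it varies with the demand for red cells. In whole tissue RNA, fewer cells of a type and less RNA per cell cannot be told apart.

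A probe set, a group of short probes that reads a transcript, is the unit of measurement, and 12422 of them were tested. Levels and differences are on the log2 scale, differences are time 2 minus time 1, and "called" means an adjusted p below 0.05 in limma (Benjamini-Hochberg over all probe sets). The tissue label was borne out by Cd79a, part of the B cell receptor, which lay between 13.53 and 14.08 in the 6 arrays and did not exceed 11.65 in any array of another tissue. Array medians lay between 8.884 and 8.971, and the mean SD between replicates was 0.11 at time 1 and 0.158 at time 2. The difference between the 3′ and 5′ control probes of Gapdh, a measure of RNA integrity, was 0.71 to 0.88 at time 1 and 0.48 to 0.60 at time 2. For the control probes of beta actin it moved the other way, from 0.01 to 0.03 at time 1 to 0.09 to 0.14 at time 2. Exocrine pancreas transcripts marked 3 of the 6 arrays: the mean of 24 such genes was 10.20 in time 1 replicate 2, 10.98 in time 2 replicate 1 and 10.01 in time 2 replicate 3, against 8.71 to 8.77 in the other 3. Liver transcripts stood out in time 2 replicate 3, where the mean of 13 hepatocyte genes was 8.84 against 8.15 to 8.27 in the other 5 arrays.

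At time 2, 4 of 20 erythroid genes, 2 of 8 heme synthesis enzymes and 11 of 56 cell division genes were called lower, and 7 of 17 B cell genes were called higher, against 4.26% and 4.01% of all probe sets. On the probe sets counted, no erythroid or heme gene was called in 3 of the 6 fits that leave out 1 array. In all, 1027 probe sets were called (8.27% of those tested), 498 higher (4.01%) and 529 lower (4.26%), and 3675 had an unadjusted p below 0.05. The median difference over all probe sets was -0.006. Among the called probe sets, 20 rose and 37 fell at least 2-fold. Without overlap between the 3 values of each group were 34.2% of all probe sets, 16% in the higher direction and 18.2% in the lower. With each array centred on its median, which moved the median difference by 0.036, 613 were higher and 427 lower, a share of 58.9% higher against 48.5%. The number of calls depended on single arrays: 145 were left without time 1 replicate 1, 298 without replicate 2 and 40 without replicate 3, and 116 without time 2 replicate 1, 2067 without replicate 2 and 625 without replicate 3. In all 6 of these fits 37 probe sets were called, 24 higher and 13 lower, and the named genes among the lower ones were Mki67, Prxl2a, Actb, Ywhaq, Vamp3, Odf2, Dek, Top2a, Ezh2, Evi5, Gcdh and Mad2l1.

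**Figure D1:**
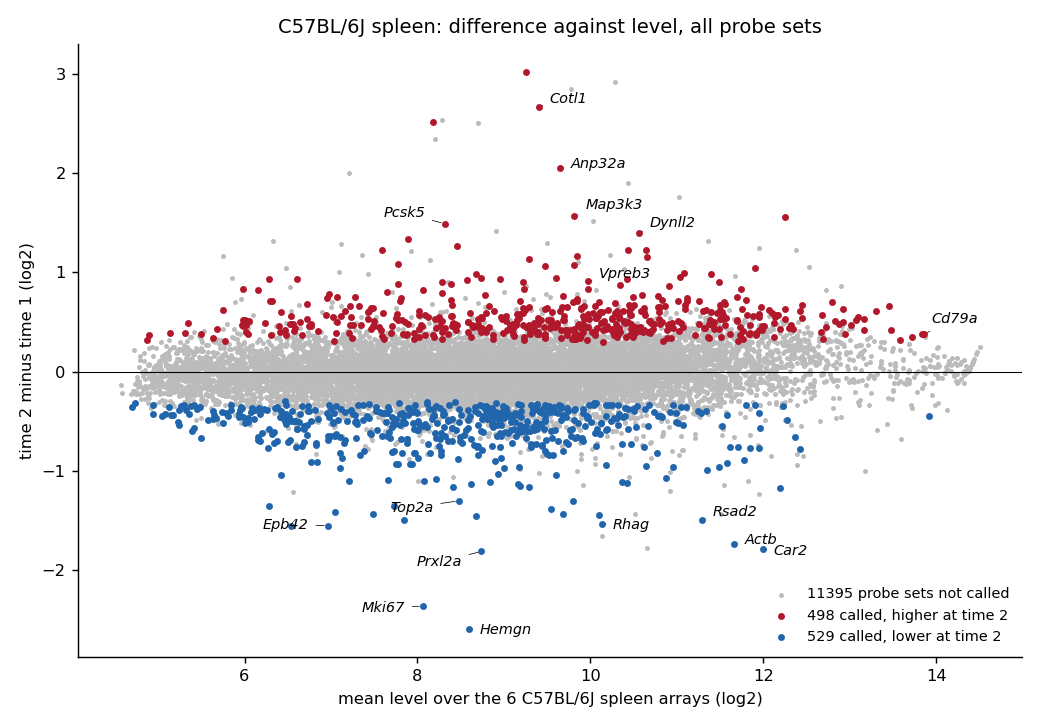
Difference between time 2 and time 1 (log2) against the mean level over the 6 C57BL/6J spleen arrays (log2), 1 point per probe set. Red points are the 498 probe sets called higher and blue points the 529 called lower; Cotl1 stands highest among the labelled genes at 2.67 and Hemgn lowest at -2.59.

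Hemgn, Rhag, Epb42, Mki67, Top2a and Smc2 are among the red cell and cell division genes that fell most and have a promoter in the RefSeq table used here. The 250 bases before the annotated start of each are printed from assembly GRCm38.p6, 5′ to 3′ on the strand of the gene. In the first 3, capitals mark matches to the GATA motif (AGATAA or TGATAA), which the erythroid factor Gata1 binds, and to CACCC, the core of sites for erythroid Klf1; in the last 3 they mark CCAAT, the site of NF-Y, and TTTGAA, the cell cycle homology region. Both strands were searched, and no 2 of the matches overlapped.
Hemgn: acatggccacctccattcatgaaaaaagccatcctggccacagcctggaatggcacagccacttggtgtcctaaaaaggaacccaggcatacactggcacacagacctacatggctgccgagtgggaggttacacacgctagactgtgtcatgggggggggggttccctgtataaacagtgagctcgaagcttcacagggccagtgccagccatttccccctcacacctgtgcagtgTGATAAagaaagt
Rhag: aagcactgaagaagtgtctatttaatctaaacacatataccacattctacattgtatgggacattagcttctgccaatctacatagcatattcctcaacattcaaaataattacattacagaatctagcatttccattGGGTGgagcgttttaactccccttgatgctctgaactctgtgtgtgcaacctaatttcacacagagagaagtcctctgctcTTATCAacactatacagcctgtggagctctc
Epb42: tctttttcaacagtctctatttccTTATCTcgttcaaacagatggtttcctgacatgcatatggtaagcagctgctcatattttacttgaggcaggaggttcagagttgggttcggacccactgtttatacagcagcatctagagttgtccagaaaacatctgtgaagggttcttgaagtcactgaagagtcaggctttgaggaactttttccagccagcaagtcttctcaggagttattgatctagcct
Mki67: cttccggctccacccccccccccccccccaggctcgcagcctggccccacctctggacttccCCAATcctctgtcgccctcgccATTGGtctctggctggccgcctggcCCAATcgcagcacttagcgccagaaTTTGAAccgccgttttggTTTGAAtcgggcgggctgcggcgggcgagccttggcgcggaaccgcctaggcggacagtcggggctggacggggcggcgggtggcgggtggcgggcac
Top2a: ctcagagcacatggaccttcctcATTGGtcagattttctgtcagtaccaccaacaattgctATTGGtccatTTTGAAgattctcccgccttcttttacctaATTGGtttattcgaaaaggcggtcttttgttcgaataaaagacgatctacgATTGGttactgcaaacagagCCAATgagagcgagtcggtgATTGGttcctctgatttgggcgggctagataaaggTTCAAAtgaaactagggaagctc
Smc2: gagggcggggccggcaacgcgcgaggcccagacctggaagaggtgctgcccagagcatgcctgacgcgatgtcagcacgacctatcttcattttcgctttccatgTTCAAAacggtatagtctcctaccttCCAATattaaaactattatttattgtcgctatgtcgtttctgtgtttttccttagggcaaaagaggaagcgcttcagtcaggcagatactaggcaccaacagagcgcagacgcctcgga

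The Hemgn window is chr4:46404184-46404433 on the minus strand and holds 1 GATA match, 8 to 13 bases before the start. Rhag, at chr17:40810899-40811148 on the plus strand, holds 1 GATA and 1 CACCC match, and Epb42, at chr2:121036878-121037127 on the minus strand, holds 1 GATA match. Over the first listed start of all 27025 genes in the table, 17% of windows of this length hold the GATA motif and 51.3% hold CACCC. Mki67, at chr7:135716380-135716629 on the minus strand, holds 3 CCAAT and 2 TTTGAA matches, and Top2a, at chr11:99024190-99024439 on the minus strand, holds 6 and 2. Smc2, at chr4:52438971-52439220 on the plus strand, holds 1 of each. CCAAT occurs in 34.5% of all windows and TTTGAA in 16.3%. Mad2l1, Chek1 and Lig1, which also fell, hold neither motif in this window, and Car2 and Hbb-bh1 are not in the table. A match describes the letters only; binding was not measured.

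Of 20 erythroid genes, 4 fell and none rose (percent called lower over all probe sets, 4.26%), and their median difference was -0.90 against -0.006 over all probe sets. For 13 of the 20, the 3 arrays of time 2 lay below all 3 of time 1 (18.2% of all probe sets). Hemgn, a nuclear protein of blood cell precursors, read 10.91, 8.71 and 10.05 at time 1 and 7.96, 6.04 and 7.89 at time 2. It was low in every time 2 array, and replicate 2 was the lowest of its group at both times. It fell 6.03-fold (difference -2.59, SE 0.62, adjusted p = 0.0412), and a further probe set for the gene had a difference of -1.21 with an adjusted p of 0.0672. The call was lost without time 1 replicate 1 (adjusted p = 0.129) or 3 (0.135), without time 2 replicate 1 (0.0863) or 3 (0.0617), and with arrays centred on the median (0.0502).

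Car2, the carbonic anhydrase that red cells use to carry carbon dioxide, read 13.55, 12.19 and 12.95 at time 1 and 11.10, 10.77 and 11.44 at time 2. The groups did not overlap, and Car2 fell 3.46-fold (-1.79, SE 0.31, adjusted p = 0.0203). Rhag, the Rh-associated glycoprotein of the red cell membrane, read 11.79, 10.05 and 10.85 and then 9.56, 9.10 and 9.46 (-1.53, SE 0.37, adjusted p = 0.0411). The lowest time 1 array was again replicate 2, and it still lay above all of time 2. Epb42, a protein of the membrane skeleton, read 8.74, 6.94 and 7.54 and then 6.21, 6.23 and 6.11 (-1.55, SE 0.37, adjusted p = 0.0414). The time 2 values of Epb42 were close together and next to the range of liver, heart and lung, 5.71 to 6.20, whereas the time 1 values were spread widely. A second probe set for Epb42, with a higher mean level, differed by -0.08, with an adjusted p of 0.554, and is the one counted in the list. Without time 1 replicate 3 none of these calls held (adjusted p = 0.0847 for Car2, 0.13 for Rhag and 0.118 for Epb42), nor without time 2 replicate 1 (0.0702, 0.102 and 0.114). Car2 and Rhag were also lost without time 1 replicate 1 (0.0528 and 0.0821), Rhag without time 2 replicate 2 (0.0585), and Rhag and Epb42 without time 2 replicate 3 (0.0794 and 0.0893).

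Hbb-bh1, an embryonic globin, was the fourth list member to fall (-0.34, SE 0.08, adjusted p = 0.0377), from 10.37 to 10.41 at time 1 to 9.98 to 10.10 at time 2. Its fall was of like size in A/J spleen, at -0.43, where most of the list moved the other way. It was called only without time 2 replicate 2 (0.0251), and otherwise lay between 0.0668 and 0.135 with time 1 replicate 1, 2 or 3 or time 2 replicate 1 or 3 left out. Other members, named after their values were seen, had large differences that missed the limit: Rhd, the Rh antigen, -1.43 (adjusted p = 0.0575), Slc4a1, the anion exchanger band 3, -1.43 (0.0619), and Bpgm, which makes the regulator of oxygen release, -1.23 (0.057). The adult globin Hba-a1 differed by 0.13, but its time 1 values, 14.36 to 14.40, were the highest of their 3 arrays, so that this difference is bounded by a ceiling. In the time 1 arrays 12, 19 and 15 probe sets stood at the highest value, against 1 in each time 2 array. Gata1, the master regulator of the lineage, differed by -0.20 (adjusted p = 0.472) and its partner Klf1 by -0.59 (0.164). Differences over the 20 genes ranged from -2.59 in Hemgn to 0.13 in Hba-a1, and 18 of them were below 0.

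In heme synthesis, 2 of 8 enzymes fell (4.26% of all probe sets) and none rose, with a median difference of -0.57, and all 8 differences were below 0. Fech, which inserts iron in the last step, read 6.95, 6.40 and 6.61 and then 6.02, 5.97 and 6.14 (-0.61, SE 0.14, adjusted p = 0.0368). Ppox, which catalyses the step before, read 10.49, 9.64 and 9.83 and then 9.20, 8.99 and 9.25 (-0.84, SE 0.20, adjusted p = 0.0401). A second probe set for Ppox, at a lower level, differed by 0.40, with an adjusted p of 0.255. On the probe sets counted, both enzymes were separated between the times in every array. Alas2, the erythroid enzyme of the first step, read 13.95, 13.46 and 13.63 and then 12.11, 12.58 and 13.35, lower in each array of time 2 but with an adjusted p of 0.0609, and Alas1, its counterpart in other cells, differed by -0.03 (0.882). Fech kept its call only without time 1 replicate 2 (adjusted p = 0.0393) or time 2 replicate 2 (0.0448) and Ppox only without time 1 replicate 2 (0.0429); without time 1 replicate 1 they were 0.0922 and 0.068, without replicate 3 0.119 and 0.11, without time 2 replicate 1 both 0.105, and without replicate 3 0.057 and 0.0685. Ppox without time 2 replicate 2 was at 0.0547.

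The erythroid counts moved with single arrays. On the probe sets counted, no erythroid gene was called without time 1 replicate 1, time 1 replicate 3 or time 2 replicate 1, 3 each were without time 2 replicate 2 or 3, and 6 were without time 1 replicate 2; the median stayed between -1.14 and -0.49. With the 3 arrays rich in pancreas transcripts left out, which leaves 2 arrays of time 1 and 1 of time 2 whose spread is assumed equal, 11 of 20 were called lower and the median was -1.19. With the pancreas level as a covariate in all 6 arrays, 1 of the 20 erythroid genes and 0 of the 8 heme enzymes were called, and with the hepatocyte level as a covariate 3 and 1 were; the erythroid medians were then -0.85 and -0.99. The mean level of the 20 genes was 11.63, 10.67 and 11.11 at time 1 and 10.40, 10.07 and 10.44 at time 2, so that the list as a whole was lower in each array of time 2.

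**Figure D2:**
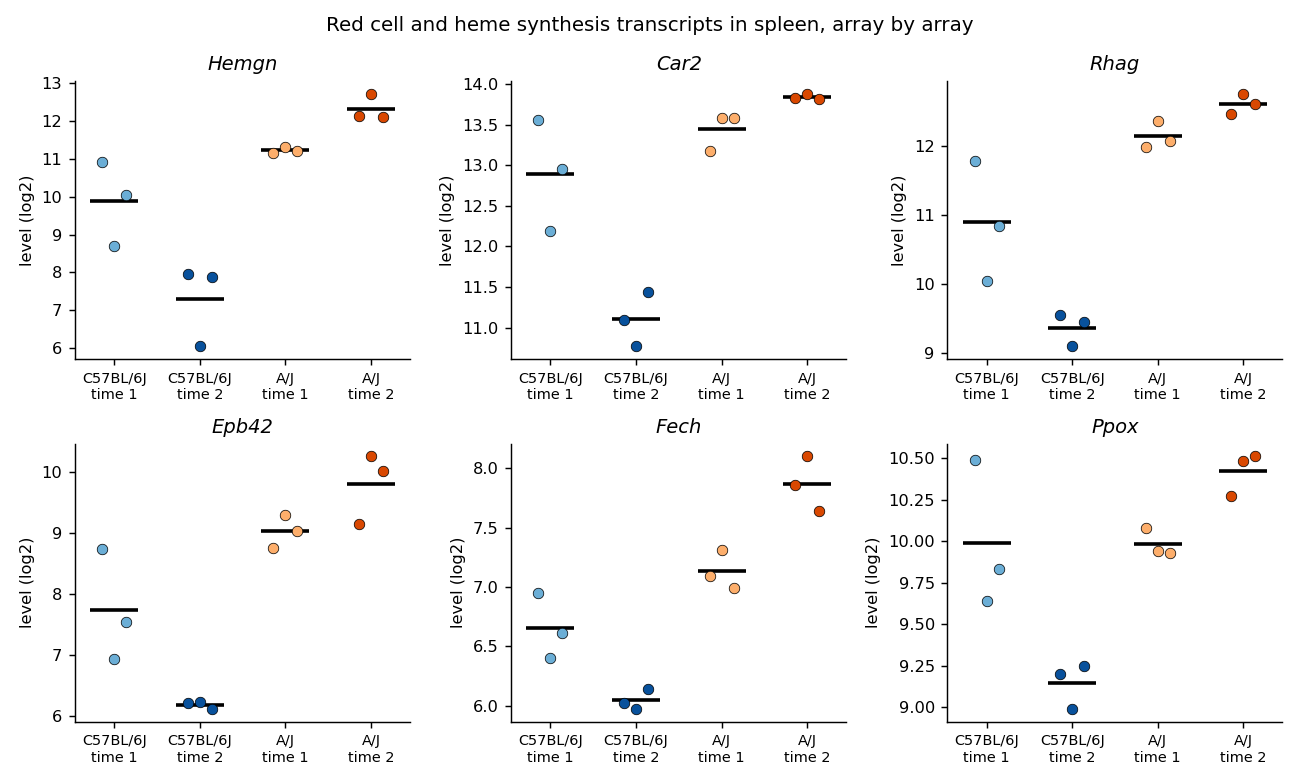
Levels (log2) of 6 red cell and heme synthesis transcripts in the 12 spleen arrays, 1 point per array and a line at each group mean. In C57BL/6J the time 2 arrays lie below all time 1 arrays for all 6 genes, and the A/J means are higher at time 2 than at time 1.

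Some transcripts of cell division fell in these arrays. Of 56 genes of the cell cycle and DNA replication, 11 fell (percent called lower, 4.26%) and 1 rose (percent called higher, 4.01%), and the median difference was -0.32. For 25 of the 56 the time 2 arrays lay below all time 1 arrays, against 18.2% of all probe sets. Mki67, the proliferation antigen Ki-67, read 9.87, 8.65 and 9.23 at time 1 and 6.77, 6.83 and 7.05 at time 2. The time 2 values were nearly alike, and they were near the top of the range of the other tissues, 5.65 to 6.83. Mki67 fell 5.15-fold (-2.36, SE 0.26, adjusted p = 0.00675) and was called whichever of the 6 arrays was left out. A second probe set for Mki67 was flat, at 8.96 to 9.03 and then 8.87 to 9.01 (-0.07, adjusted p = 0.61). It reads the gene at a higher level and is the one counted in the list, so the fall of Mki67 is that of 1 of its 2 probe sets.

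Top2a, the topoisomerase that untangles chromosomes, read 9.49, 8.81 and 9.09 and then 7.83, 7.86 and 7.79 (-1.30, SE 0.16, adjusted p = 0.00807). Mad2l1, of the spindle checkpoint, read 9.05, 9.19 and 8.96 and then 8.40, 8.33 and 8.20 (-0.76, SE 0.10, adjusted p = 0.00951). Both were called in all 6 fits that leave out 1 array. Smc2, a condensin subunit outside the list, read 9.64, 9.02 and 9.55 and then 7.49, 8.27 and 8.09 (-1.45, SE 0.22, adjusted p = 0.0151), and was not called without time 1 replicate 1 (0.0588) or 3 (0.0728). Chek1, a checkpoint kinase, fell by 0.43 on the log2 scale (adjusted p = 0.0248) and Lig1, a DNA ligase of replication, by 0.52 (0.0252), though another probe set for Lig1 differed by 0.11. Chek1 and Lig1 were called only without time 2 replicate 2 (0.0199 and 0.0274) or 3 (0.0435 and 0.047); without time 1 replicates 1, 2 and 3 and time 2 replicate 1 the adjusted p lay between 0.0638 and 0.0933. The other 7 that fell, named after their values were seen, were Hmgb2, Prim1, Racgap1, Gmnn, Kif20a, Cdc25c and Foxm1, at -0.80 to -0.36. Cdk2 was the member that rose, by 0.52 (adjusted p = 0.0405).

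Ezh2, which methylates histones in dividing cells, read 9.90, 9.60 and 9.78 and then 8.32, 8.72 and 8.77 (-1.15, SE 0.14, adjusted p = 0.00779). Dek, a chromatin protein, read 10.77, 10.33 and 10.24 and then 8.81, 9.37 and 9.28 (-1.30, SE 0.18, adjusted p = 0.0121). Both were named after their values were seen, as 2 of the 13 lower probe sets called in every fit that leaves out 1 array. Several replication genes differed little: Mcm5 by -0.06, Cdt1 by 0.02 and Pold1 by 0.06. The number of members that fell was 2 without time 1 replicate 1 or 3 or without time 2 replicate 1, 4 without time 1 replicate 2, 14 without time 2 replicate 2 and 7 without time 2 replicate 3, and it was 12, with a median of -0.47, without the 3 arrays rich in pancreas transcripts. It was 2 with the pancreas level as a covariate and 3 with the hepatocyte level, with medians of -0.31 and -0.40. The mean over the 56 genes was 9.55, 9.14 and 9.30 at time 1 and 9.01, 8.95 and 9.08 at time 2. It followed the erythroid mean in its order within time 1, where replicate 1 was highest and replicate 2 lowest in both.

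**Figure D3:**
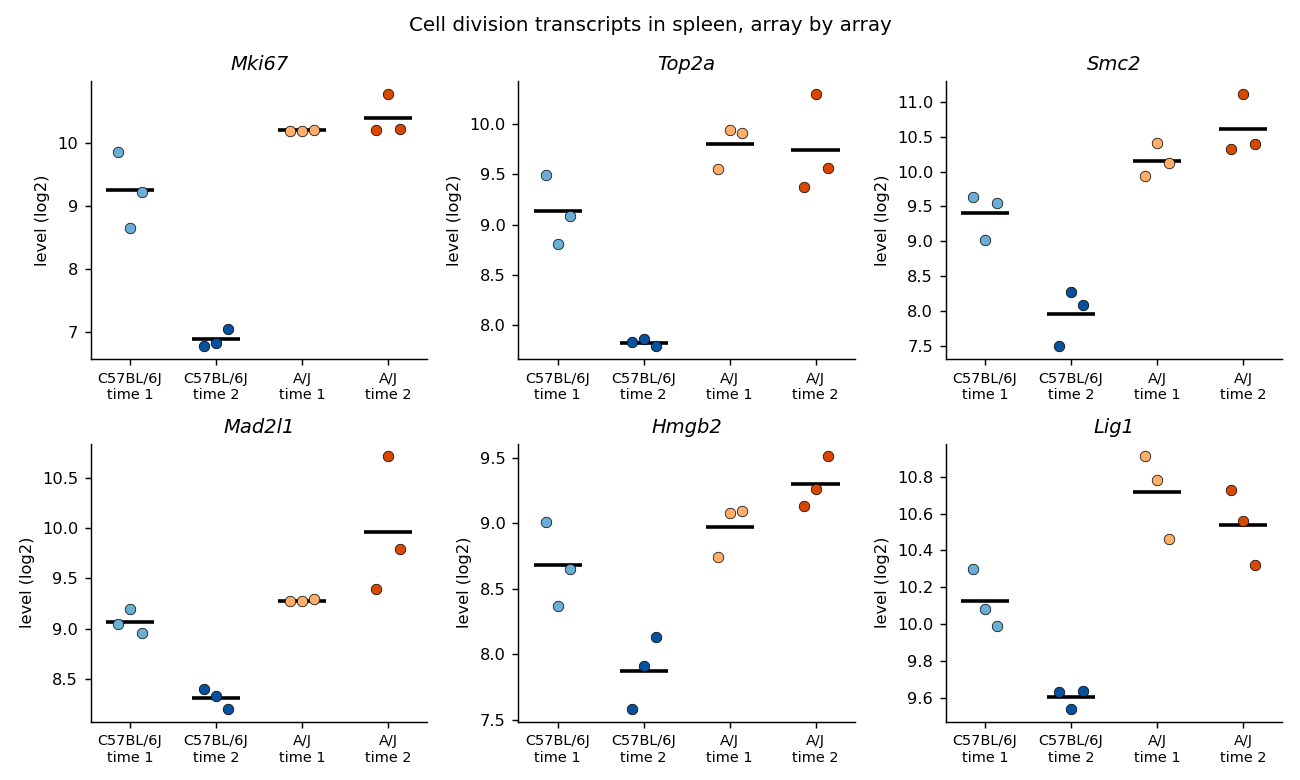
Levels (log2) of 6 cell division transcripts in the 12 spleen arrays, 1 point per array and a line at each group mean. In C57BL/6J the time 2 arrays lie below all time 1 arrays for all 6 genes, with Mki67 between 6.77 and 7.05 at time 2 against 8.65 to 9.87 at time 1.

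Other large falls belonged to no common list. Prxl2a, a peroxiredoxin-like protein, read 9.93, 9.36 and 9.64 and then 7.55, 7.92 and 8.03 (-1.81, SE 0.17, adjusted p = 0.00235), while its other probe set differed by -0.29. A probe set for Actb, beta actin, read 12.39, 12.63 and 12.56 and then 10.59, 10.85 and 10.95 (-1.73, SE 0.12, adjusted p = 0.000496). It is of the type that also reads related sequences, and another set for Actb differed by -0.76 with an adjusted p of 0.0923. Both genes were called in every fit that leaves out 1 array. Aldh1a1, which makes retinoic acid, fell from 11.14, 10.55 and 10.78 to 8.91, 9.82 and 9.42 (-1.44, SE 0.23, adjusted p = 0.0168), and Cdr2 from 10.70, 9.90 and 10.59 to 8.68, 8.68 and 9.53 (-1.43, SE 0.27, adjusted p = 0.0235). Neither was called without time 1 replicate 1 (0.0606 and 0.088) or 3 (0.0728 and 0.0988), and Cdr2 was not called without time 2 replicate 1 (0.0841). Ywhaq, a 14-3-3 protein, fell by 1.49 on the log2 scale (SE 0.10, adjusted p = 0.000496), but also by 1.28 in A/J spleen and by 1.02 in lung, and its other probe sets differed by -0.17 and 0.16.

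Of 17 B cell genes 7 rose and none fell (percent called higher, 4.01%), with a median of 0.18. Vpreb3, a chaperone of the immunoglobulin receptor in early B cells, read 9.55, 9.53 and 9.48 at time 1 and 10.55, 10.33 and 10.40 at time 2. Replicates were close together at each time, and Vpreb3 rose 1.87-fold (0.91, SE 0.09, adjusted p = 0.00287), also in each fit that leaves out 1 array; a second probe set differed by 0.01. Cxcr5, the chemokine receptor that guides B cells to follicles, read 9.74, 9.96 and 9.97 and then 10.57, 10.19 and 10.78 (0.62, SE 0.15, adjusted p = 0.0404). Spib, a transcription factor of B cells, rose by 0.54 (adjusted p = 0.0292) on 1 of 2 probe sets, with 0.01 on the other, Ly86 by 0.43 (0.0323), and the surface protein Cd37 by 0.38 (0.0345). Cd79a of the B cell receptor rose by 0.38 (0.0414), from 13.53, 13.78 and 13.72 to 14.01, 14.06 and 14.08.

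The B cell list did not move as one. Ms4a1, the antigen CD20, differed by 0.12 (adjusted p = 0.468) on the probe set counted and by -0.66 on another (0.0234). Cd79b, the partner of Cd79a, differed by -0.06 (0.725), and the receptors Cr2 and Fcer2a by -0.73 (0.0858) and -0.34 (0.25). None of the 27 immunoglobulin genes was called in limma, 2 had an unadjusted p below 0.05, and their median was -0.03. Apart from Vpreb3, the named B cell genes were called only when time 2 replicate 2 was left out, with an adjusted p of 0.00804 for Cxcr5 to 0.0455 for Cd79a; without time 1 replicate 1, 2 or 3 or time 2 replicate 1 or 3 they lay between 0.0527 and 0.133. The list count was then 1 in each of the other 5 fits, as it was without the 3 arrays rich in pancreas transcripts and with the hepatocyte level as a covariate, and 7 higher with 1 lower without time 2 replicate 2. With quantile normalization 4 rose.

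Among antigen presentation genes, 2 of 12 class II genes rose (4.01% of all probe sets) and 1 fell (4.26%). H2-Oa, which tunes peptide loading in B cells, read 11.16, 11.48 and 11.33 and then 12.32, 11.90 and 12.26 (0.83, SE 0.13, adjusted p = 0.0168). H2-DMb2, a subunit of the loading catalyst, read 12.08, 11.97 and 12.22 and then 11.17, 11.31 and 11.50 (-0.76, SE 0.11, adjusted p = 0.0128). The probe set assigned to H2-Ea, the other class II member counted as higher, rose by 0.39 (0.0389). Whether that probe set reads H2-Ea itself in this strain was not tested. Of 21 T cell genes, 2 rose (4.01% of all probe sets) and none fell: Ccr7, the homing receptor for lymphoid tissue, by 0.65 (adjusted p = 0.0446) and the adhesion molecule Cd2 by 0.48 (0.0488). Lef1, a transcription factor of T cells and early lymphocytes, read 9.70, 9.81 and 9.90 and then 10.42, 10.24 and 10.35 (0.54, SE 0.09, adjusted p = 0.0191). Another probe set for Lef1, with a higher mean level and counted in the list, differed by 0.29 (0.0832). Ltb, the lymphotoxin that organises follicles, rose by 0.61 (0.0392) and Il2rb, an interleukin receptor chain of T and natural killer cells, by 0.53 (0.0239). Without time 1 replicate 3 none of these was called (adjusted p = 0.0714 to 0.171), and without time 1 replicate 1 only H2-DMb2 (0.0493) and Il2rb (0.0411) were. Ccr7, Cd2, H2-Ea, H2-Oa, Il2rb, Lef1 and Ltb were also lost without time 2 replicate 1, at 0.0597 to 0.125, and Ccr7, Cd2, H2-Ea, Il2rb and Ltb without time 2 replicate 3, at 0.0501 to 0.0997. Without time 1 replicate 2, Ccr7, H2-Ea, Il2rb, Lef1 and Ltb were at 0.0537 to 0.111.

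Interferon response genes moved in part: 6 of 33 fell (percent called lower, 4.26%) and 1 rose (4.01%), with a median of -0.08. Rsad2, the antiviral protein viperin, read 12.46, 11.46 and 12.16 and then 9.79, 10.78 and 11.04 (-1.49, SE 0.34, adjusted p = 0.0372). Ifih1, a sensor of viral RNA, fell by 0.64 on the log2 scale (adjusted p = 0.0168), Ifi204 by 0.62 (0.0159), Trim30a by 0.83 (0.0221) and the chemokine Cxcl10 by 0.36 (0.034). Irf1, a transcription factor of the pathway named after its value was seen, was the member that rose, by 0.41 (0.0445). Well-known targets such as Ifit1, Isg15, Mx1, Irf7 and Irf9 did not pass, at -0.39, -0.54, -0.12, -0.06 and 0.10. None of the 33 was called without time 1 replicate 1, time 1 replicate 3 or time 2 replicate 1; 4 fell without time 1 replicate 2, 10 without time 2 replicate 2 and 5 without time 2 replicate 3.

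Of 25 heat shock genes 2 fell and of 21 chaperones of the endoplasmic reticulum 1 fell, against 4.26% of all probe sets, and none of either list rose. Hsp90aa1, the inducible cytosolic Hsp90, read 11.84, 11.83 and 11.85 and then 10.60, 11.12 and 10.81 (-0.99, SE 0.13, adjusted p = 0.01), whereas another probe set for it rose by 0.41 (0.0338). Hsp90b1, its relative in the endoplasmic reticulum, fell by 0.76 (adjusted p = 0.0403), a call kept only without time 2 replicate 2 (0.0107) and otherwise between 0.0748 and 0.135 with time 1 replicate 1, 2 or 3 or time 2 replicate 1 or 3 left out. Of 49 translation factors 5 fell (4.26% of all probe sets) and 2 rose (4.01%), Eif5b by -0.76 (0.0171), Eif3a by -0.65 (0.0221) and Eif1b by 0.57 (0.0141) among them. Of 63 splicing genes 6 fell and 3 rose, and of 47 proteasome genes 5 fell and 5 rose, against the same 4.26% and 4.01%. The medians of these 3 lists were -0.02, -0.06 and 0.04. Hsp90aa1 was not called without time 1 replicate 3 (0.0568). Without that array no member of the translation, splicing and proteasome lists was called. Without time 1 replicate 1 the 3 lists held 1 call in all, and without time 2 replicate 1 also 1.

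The largest rises were shared unevenly with other tissues. Cotl1, a coactosin-like protein that binds actin, read 8.04, 7.99 and 8.18 at time 1 and 10.43, 10.66 and 11.13 at time 2. It rose 6.36-fold (2.67, SE 0.16, adjusted p = 0.000463). Anp32a, a nuclear inhibitor of phosphatase 2A, read 8.60, 8.57 and 8.71 and then 10.55, 10.68 and 10.77 (2.05, SE 0.09, adjusted p = 8.99e-05), and another of its probe sets rose by 0.40 (0.0401). For both genes every time 2 array lay far above every time 1 array. Map3k3, a kinase, rose by 1.57, Pcsk5, a proprotein convertase, by 1.49, Dynll2, a dynein light chain, by 1.40 and Rraga, a GTPase that signals amino acids to mTOR, by 1.23. These 6 genes were called in each fit that leaves out 1 array, with an adjusted p of at most 0.0121. Other probe sets for some of them moved less, at 0.49 and -0.00 for Map3k3, -0.17 and -0.04 for Pcsk5 and 0.15 for Dynll2. Another pair of probe sets, at 3.02 and 2.51, rose at least 4-fold but carry no single gene symbol.

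Immediate early genes, which respond within minutes to stimuli that include tissue handling, rose in 5 of 40 cases (4.01% of all probe sets) with none that fell and a median of 0.22. For 19 of the 40 the time 2 arrays lay above all time 1 arrays (16% of all probe sets). Junb, a subunit of AP-1, read 10.20, 10.10 and 10.34 and then 11.32, 10.86 and 10.76 (0.77, SE 0.15, adjusted p = 0.0243). Gadd45b, a stress gene, read 9.06, 9.32 and 9.14 and then 9.91, 9.74 and 9.80 (0.64, SE 0.10, adjusted p = 0.015), and Dusp6, Socs3 and Dusp1, which dampen signalling, rose by 0.61 (0.0344), 0.47 (0.0371) and 0.65 (0.0489). Further probe sets for Gadd45b, Dusp6 and Socs3 differed by -0.13, -0.18 and 0.29, none called, and another for Junb rose by 0.75 (0.0227). No member was called without time 1 replicate 1, time 1 replicate 3 or time 2 replicate 1, 1 was called higher without time 1 replicate 2, 2 without time 2 replicate 3 and 15 without time 2 replicate 2. In oxidative phosphorylation, 7 of 73 genes rose (4.01% of all probe sets) and 1 fell (4.26%), with a median of 0.16; Cox7a1 rose by 0.71 (0.0138) and Uqcrc2 fell by 0.55 (0.0263). The number that rose was 27 without time 2 replicate 2, 3 without time 2 replicate 3, 0 without time 1 replicate 1 or 3, and 1 without time 1 replicate 2 or time 2 replicate 1.

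Of 18 circadian clock genes, 1 rose and none fell, a share near the 4.01% of all probe sets. This was Csnk1e, a kinase of the period proteins, which rose by 0.50 (adjusted p = 0.0319), a call kept only without time 2 replicate 2 (0.00833) and otherwise between 0.0588 and 0.108 with time 1 replicate 1, 2 or 3 or time 2 replicate 1 or 3 left out. The core genes Arntl, Per1, Per2, Per3, Cry1, Cry2, Nr1d1 and Dbp differed by 0.03, 0.09, 0.18, 0.08, 0.18, -0.04, 0.11 and 0.31, and Clock by -0.35, none of them called on the probe set counted. A further Cry1 probe set was called lower (-0.43, adjusted p = 0.0215). Of 18 macrophage genes 1 fell and 1 rose, against 4.26% and 4.01% of all probe sets: Mrc1, the mannose receptor, fell by 0.67 (adjusted p = 0.0272) and Fcna, a ficolin of spleen macrophages, rose by 0.50 (0.0441). Both of these calls were lost in each fit that leaves out 1 array except that without time 2 replicate 2, with an adjusted p of 0.0578 to 0.16. No gene was called in limma among 15 of neutrophils, 8 of megakaryocytes and platelets and 11 of mast cells and eosinophils, of which 4, 1 and 3 had an unadjusted p below 0.05.

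Pancreas transcripts differed more between replicates than between the times. Prss2, a trypsinogen, read 7.75, 13.06 and 7.65 at time 1 and 13.92, 7.59 and 12.64 at time 2. Cel, the bile salt lipase of the pancreas, read 9.99, 12.29 and 9.83 and then 13.78, 9.76 and 12.54. The same 3 arrays were high for both genes, 1 of time 1 and 2 of time 2. Of the 24 pancreas genes 1, Cuzd1, was called (0.46, SE 0.12, adjusted p = 0.0499, 4.01% of all probe sets called higher), although the median difference was 0.60. Cuzd1 was called only without time 2 replicate 2 (0.0478), at 0.0508 to 0.176 without time 1 replicate 1, 2 or 3 or time 2 replicate 1 or 3. With these 3 arrays left out, 427 probe sets were called, 232 of them among the 1027, and the differences of Hemgn, Car2 and Mki67 were -4.44, -2.48 and -2.72. That fit rests on 3 arrays, with a single one of time 2. In the fit of all 6 arrays with the pancreas level as a covariate, Hemgn was not called (-2.69, adjusted p = 0.0793), and Car2 (-1.69, 0.0477) and Mki67 (-2.22, 0.0133) were. Rhag, Fech and Ppox were not called there (0.0937, 0.0847 and 0.0906). None of the 13 hepatocyte genes was called in limma, 4 had an unadjusted p below 0.05, and the list median was 0.26. Alb, serum albumin, read 8.42, 8.47 and 10.31 at time 2 and 8.59 to 8.92 at time 1, so that time 2 replicate 3 stood apart.

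**Figure D4:**
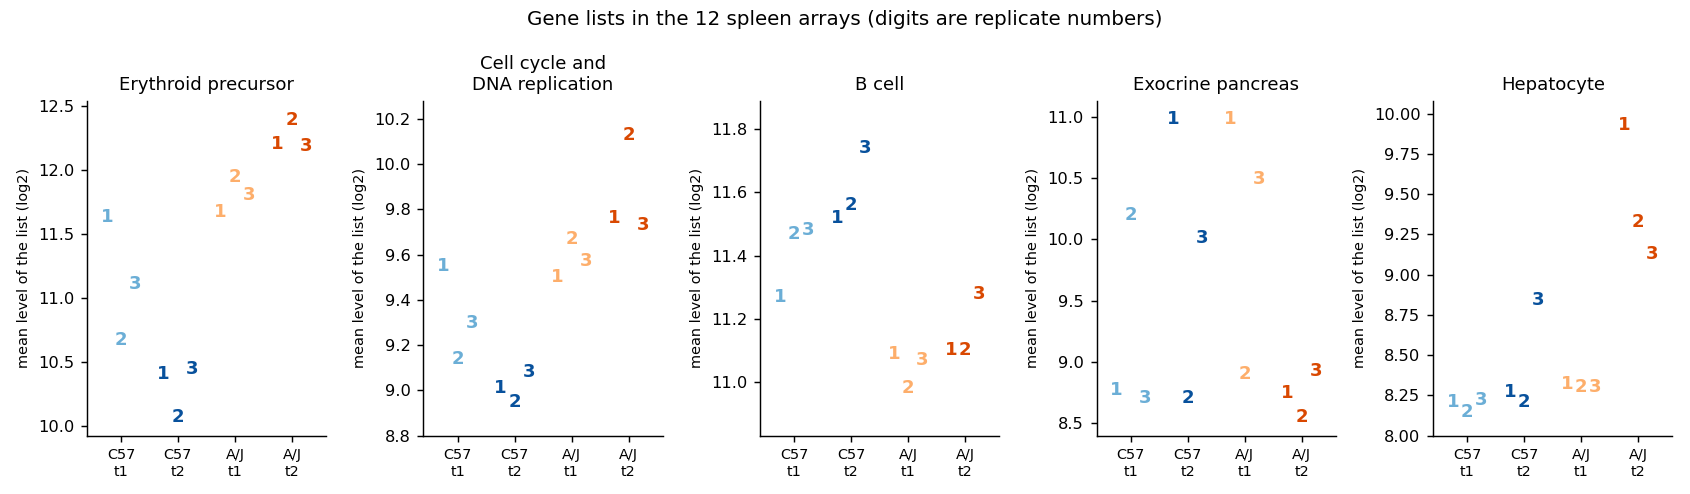
Mean level (log2) of 5 gene lists in each of the 12 spleen arrays; digits are replicate numbers and axes differ between panels. The erythroid mean is 10.07 to 10.44 at time 2 in C57BL/6J and 12.19 to 12.39 in A/J, and the pancreas mean is high in C57BL/6J time 1 replicate 2 and time 2 replicates 1 and 3 and in A/J time 1 replicates 1 and 3.

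The next comparison asked which differences in C57BL/6J spleen departed from the mean of those in liver and lung of the same strain. The time 1 arrays of spleen belong to a different run from those of liver and lung. Tissue and the array run of time 1 therefore cannot be told apart in this comparison. Of all probe sets 774 departed (6.23%), 242 above 0 and 532 below, and 274 of them were also called in spleen alone, 91 above 0 and 183 below. The counts were 491, 564 and 334 without time 1 replicates 1, 2 and 3, 277, 1195 and 761 without time 2 replicates 1, 2 and 3, and 2034 and 15 against liver alone and lung alone. Of the 12 genes named for this comparison, all were called against liver alone, but 9 lost their call against lung alone, where Cotl1 (1.77), Mki67 (-1.97) and Prxl2a (-1.55) kept theirs. The 9 kept their direction against lung alone. Below 0 were Hemgn (-2.57), Actb (-1.7), Car2 (-1.68) and Rsad2 (-1.66). Above 0 were Ambp (1.78), Nrgn (1.2), Cxcr5 (1.07), H2-Oa (0.81) and Vpreb3 (0.64). Against the mean of both tissues, 11 of 20 erythroid genes were called below 0 (4.28% of all probe sets). So were 5 of 8 heme enzymes and 5 of 56 cell cycle genes. Hemgn departed by -2.39 (SE 0.53, adjusted p = 0.0159), with a time difference of -0.38 in liver and -0.02 in lung. Mki67 departed by -2.18 (SE 0.26, adjusted p = 0.000372), Prxl2a by -1.71 (0.000372), Car2 by -1.67 (0.00264), Rsad2 by -1.73 (0.00646) and Actb by -1.86 (0.000884).

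Upward, 8 of 17 B cell genes were above 0 in this comparison (1.95% of all probe sets). Cxcr5 departed by 1.01 (adjusted p = 0.00177), H2-Oa by 0.96 (0.00126), Vpreb3 by 0.94 (0.00185) and Nrgn, a calmodulin-binding protein, by 0.89 (0.00941). In liver 11 of the 17 B cell genes were called lower at time 2 (27.6% of all probe sets there) and none higher, so part of this difference lies in liver; in lung 1 was called lower (2.2%). Ambp, a plasma protein made by hepatocytes, departed by 1.28 (adjusted p = 0.0203). Nrgn and Ambp departed by 0.58 and 0.78 against liver alone. Against lung alone they departed by 1.2 and 1.78, neither called, so lung carries the larger part of both departures. In spleen Ambp read 6.19, 6.04 and 6.19 at time 1 and 6.94, 6.79 and 7.47 at time 2. It was highest in time 2 replicate 3, the array with the highest hepatocyte level. With the hepatocyte level as a covariate, the spleen difference of Ambp was 0.67 (adjusted p = 0.0208 in limma). Without time 2 replicate 3 the adjusted p of that difference was 0.0176. The part of the hepatocyte level in the departure from liver and lung was not tested. Cotl1 departed by 2.11 (SE 0.20, adjusted p = 7.47e-05), with time differences of 0.23 in liver and 0.90 in lung.

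By contrast, the rise of Anp32a was 2.55 in liver, 2.02 in lung, 1.54 in heart and 2.16 in A/J spleen. Pcsk5 rose by 1.40, 1.67, 1.35 and 1.53 in the same 4 series, and Dynll2 by 1.91, 1.50, 1.29 and 1.37. None of these 3 departed from liver and lung (adjusted p = 0.383, 0.919 and 0.376). In fits of 6 arrays each that share no sample with C57BL/6J spleen, but share the array run of time 2, 3287 probe sets were called in A/J spleen (26.5%), 5921 in liver (47.7%), 586 in lung (4.72%) and 1616 in heart (13%). By direction, higher and then lower at time 2, these were 20.1% and 27.6% in liver, 2.52% and 2.2% in lung, and 6.34% and 6.67% in heart. Of the 1027 called in C57BL/6J spleen, 518 were also called in A/J spleen (50.4% of the former and 15.8% of the latter), 501 of them in the same direction. The shared calls were 557 with liver (54.2% and 9.41%), 188 with lung (18.3% and 32.1%) and 311 with heart (30.3% and 19.2%), of which 466, 187 and 300 had the same direction.

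**Figure D5:**
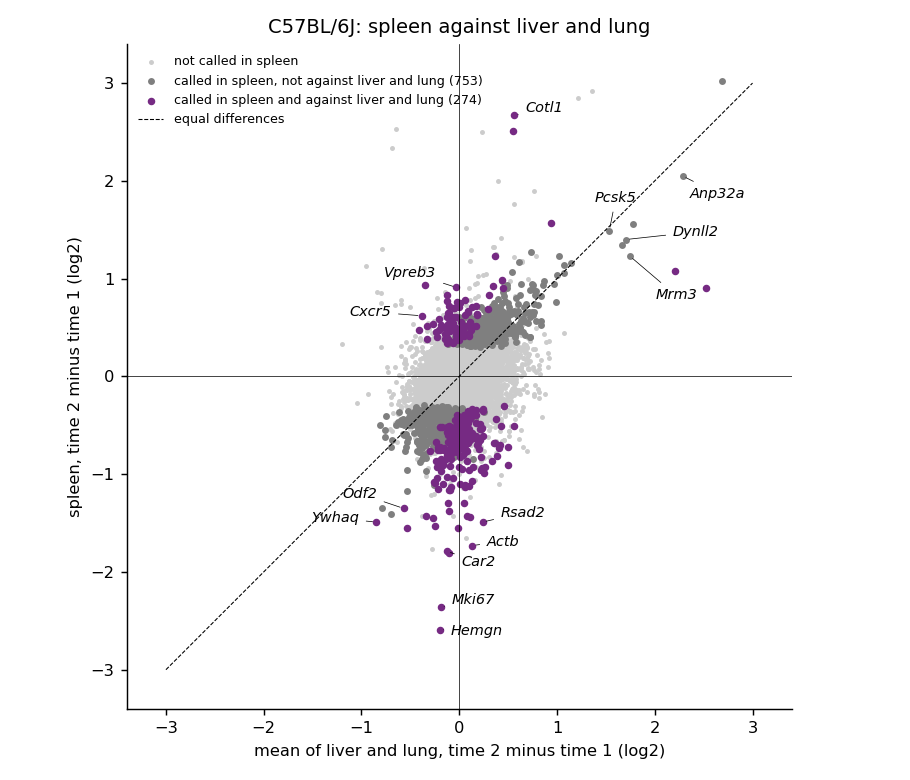
Time difference (log2) in C57BL/6J spleen against the mean time difference of C57BL/6J liver and lung (log2), 1 point per probe set, with a dashed line at equal differences. Purple marks the 274 probe sets called in spleen and against liver and lung; Mki67 and Hemgn lie far below the line and Cotl1 above it, while Anp32a, Dynll2 and Pcsk5 lie near it.

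The last comparison asked whether the time difference in spleen differed between C57BL/6J and A/J. It did for 26 probe sets (0.209%), 3 above 0 (0.0242%) and 23 below (0.185%), and 2430 had an unadjusted p below 0.05. Of the 26, 19 were also called in C57BL/6J alone. The count was 3, 129 and 2 without C57BL/6J time 1 replicates 1, 2 and 3 and 5, 81 and 223 without time 2 replicates 1, 2 and 3. Mki67 read 10.20, 10.20 and 10.22 in A/J at time 1 and 10.21, 10.79 and 10.23 at time 2, so that the strains differed in their time difference by -2.57 (SE 0.34, adjusted p = 0.0164). Car2 differed by -2.19 (SE 0.37, adjusted p = 0.0422), with 13.18 to 13.58 in A/J at time 1 and 13.82 to 13.88 at time 2.

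Other genes below 0 were Smc2 at -1.91 (adjusted p = 0.0448), Cdr2 at -2.19 (0.0334), Aldh1a1 at -1.84 (0.0448), Prxl2a at -1.82 (0.0221) and, from the lists, Fech at -1.35 (0.0292). Named after their values were seen, Ezh2 (-1.48, 0.0448), Ccna2, a cyclin of replication (-1.39, 0.0416), Nusap1, a spindle protein (-1.62, 0.0292), and Abcg2, an exporter of heme precursors (-1.56, 0.0221), were among them as well. Lef1 was above 0 on its probe set of lower level, at 0.71 (adjusted p = 0.033), since that probe set differed by -0.17 in A/J. Hemgn differed most in size among the erythroid genes, at -3.69 (SE 0.74), but did not pass (adjusted p = 0.0626). Its A/J values were 11.15, 11.33 and 11.20 at time 1 and 12.13, 12.73 and 12.11 at time 2, a rise of 1.09 (adjusted p = 0.00421).

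Counts within each strain, which are no test of their difference, were as follows. In A/J, 11 of the 20 erythroid genes were called higher at time 2 and 2 lower, with a median of 0.40, where 0 and 4 were called in C57BL/6J with a median of -0.90; over all probe sets 10.1% were called higher in A/J and 16.4% lower. The cell cycle list had 18 of 56 genes called higher in A/J and none lower, with a median of 0.27, and the interferon list 13 of 33 higher and 2 lower, with a median of 0.24. The B cell list had 4 of 17 genes called higher in A/J and 1 lower, and its median of 0.18 was that of C57BL/6J. Gene by gene, the test between strains passed for 1 erythroid gene, 1 cell cycle gene and no interferon or B cell gene (0.185% of all probe sets below 0). An unadjusted p below 0.05 was found in that test for 17 of 20 erythroid and 32 of 56 cell cycle genes. It was found for 14 of 33 interferon genes, 4 of 17 B cell genes and 2430 of all 12422 probe sets. Liver transcripts also moved with the strains: the hepatocyte mean was 8.30 to 8.32 in A/J at time 1 and 9.13 to 9.93 at time 2, and 11 of 13 of these genes were called higher there. Pancreas transcripts moved with the strains as well. Their mean was 10.98, 8.90 and 10.49 in A/J at time 1 and 8.75, 8.55 and 8.93 at time 2, and 11 of 24 were called lower in A/J, with a median of -1.49. Between the strains all 24 differed by more than 0, with a median of 1.99; none was called in limma and 16 had an unadjusted p below 0.05. The part of liver and pancreas transcripts in the strain comparison was not tested.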

How the data were processed

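RNA of 48 samples was measured on 48 arrays, 1 per sample, and the 6 arrays of C57BL/6J spleen are the ones described. The deposited table holds log2 expression values per probe set; the scale was read from the values, which run from 4.406 to 14.628 in these arrays, and the background correction, summarisation and normalization by the authors are not given in the sources used here. Of 12488 probe sets, 66 controls were left out and 12422 tested. One gene symbol was given for 10833 of them (10817 found in the gene table of assembly GRCm38.p6), several for 396 and none for 1193; probe sets with several or no symbol were left unnamed. Promoters are from RefSeq on GRCm38.p6.

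Differences were fitted with limma 3.58.1 (lmFit and eBayes, R 4.3.3) on 6 arrays, on 18 C57BL/6J arrays for spleen against the mean of liver and lung, and on 12 spleen arrays for C57BL/6J against A/J, p-values being adjusted by Benjamini-Hochberg across the probe sets tested, with 0.05 as the limit. The scripts were tested on simulated data. P-values rest on the spread between the 3 replicates within groups, pooled over the groups of a fit and moderated across probe sets by eBayes. They do not cover variation between array runs, and the number of arrays limits the precision. The 48 gene lists take, for a gene with several probe sets, the one whose mean over the 6 arrays is highest. Genes named were the 15 with the largest difference in each direction (called, 1 symbol, no overlap), up to 4 called members of each list by p or else the 2 with the smallest p, the 6 in each direction of both other comparisons that were also called in spleen, and any exocrine pancreas or circadian gene; other names are marked as chosen after their values were seen. The members and lists were chosen with earlier results of these data known. Alternatives were quantile normalization, median centring, leaving out the lowest 25% of probe sets, trend and robust fits, a replicate block, leaving out each array, fits on 12 and 48 arrays, liver or lung alone, and the pancreas level as a covariate. A hepatocyte covariate and leaving out arrays with a pancreas mean above 9.5 were added after seeing the data.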

Additional observations from a re-analysis of the deposited data

Results flagged for a closer look

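Time differences in C57BL/6J spleen that departed from those of liver and lung, by a test of the difference itself in limma, numbered 774 probe sets. Tissue and the array run of time 1 cannot be told apart in this test. The genes named for it were Cotl1 (2.11), Ambp (1.28), Cxcr5 (1.01), H2-Oa (0.96), Vpreb3 (0.94) and Nrgn (0.89) above 0, and Hemgn (-2.39), Mki67 (-2.18), Actb (-1.86), Rsad2 (-1.73), Prxl2a (-1.71) and Car2 (-1.67) below 0. Against lung alone 9 of these 12 genes lost their call, and Cotl1, Mki67 and Prxl2a kept it. That fit called 15 probe sets in all, and the 9 kept their direction in it. Below 0 they were Hemgn (-2.57), Actb (-1.7), Car2 (-1.68) and Rsad2 (-1.66). Above 0 they were Ambp (1.78), Nrgn (1.2), Cxcr5 (1.07), H2-Oa (0.81) and Vpreb3 (0.64).

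Between C57BL/6J and A/J spleen the time difference departed for 26 probe sets by the same kind of test. Lef1 was above 0 (0.71, on its probe set of lower level), and Mki67 (-2.57), Car2 (-2.19), Cdr2 (-2.19), Smc2 (-1.91), Aldh1a1 (-1.84) and Prxl2a (-1.82) were below 0. Car2, Mki67 and Prxl2a appear in both sets.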

How the results depend on the processing

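The count of 1027 probe sets in C57BL/6J spleen lay between 40 and 2067 when 1 array was left out. It was 1681 in a fit on 12 spleen arrays and 3146 on 48 arrays, 332 with the pancreas level and 329 with the hepatocyte level as a covariate, and 427 without the arrays whose pancreas mean exceeded 9.5. The count of 774 against liver and lung ranged from 277 to 1195 with 1 spleen array left out, and was 2034 against liver alone and 15 against lung alone. The count of 26 between strains ranged from 2 to 223 with 1 C57BL/6J array left out, and was 12 with quantile normalization, 16 with median centring, 1124 on 48 arrays and 3 with the replicate block. No named gene called in spleen changed its direction under these alternatives. Of 177 named probe sets 25 did, none of them called, 19 of pancreas genes and 6 of circadian genes: without the pancreas-rich arrays Cel went from 1.32 to -0.15, Prss2 from 1.90 to -0.11 and Clock from -0.35 to 0.06, and the pancreas median from 0.60 to -0.10. The causes of these shifts were not tested. A planned limit of 11 on the pancreas mean left out no array and gave no value. The replicate block gave 959 in spleen and 756 against liver and lung. Deviations of arrays with the same number correlated at 0.055, -0.378 and 0.008, and those with different numbers at -0.385 to 0.302. The labels do not say whether a number marks paired animals. Deviations from means of 3 arrays that also differ in pancreas and liver transcripts cannot decide it. The erythroid list had 11 genes lower with the block, against 4 without it.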

Other observations

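Prm1, a protamine of sperm chromatin, read 7.31, 7.54 and 7.50 in C57BL/6J spleen at time 1 and 10.94, 11.16 and 7.75 at time 2 (2.50, adjusted p = 0.0778 in limma). It was high in time 2 replicates 1 and 2. It was named after its values were seen.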
